A study of Mus musculus with 16 samples.

Results

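The 7 genes described here encode subunits of the GABA-A receptor: Gabra2, Gabra3, Gabra5, Gabrb2, Gabrg1, Gabrg3 and Gabrd. They are the listed symbols whose Ensembl identifiers were matched in the count files through the mm10 annotation, and they are 7 of the 19 GABA-A subunit genes and of the 52636 genes in the files. RNA was sequenced from lumbar dorsal root ganglia (DRGs, levels L3-6) of male C57BL/6J mice aged 3-4 months, with 1 mouse per library and 4 mice in each of 4 groups. SNI-Saline mice had a tibial spared nerve injury (SNI), in which the common peroneal and sural branches of the sciatic nerve were tied and cut, and were given saline. Sham-Saline mice had sham surgery and saline, and the SNI-DMI and Sham-DMI mice had the same surgeries followed by desipramine (DMI), a tricyclic antidepressant that blocks noradrenaline reuptake. All mice were injected intraperitoneally 2 times a day for 3 weeks, with DMI at 15 mg/kg or with saline alone. The labels place the first injection 4 weeks after surgery, as do the abstract, results and supplement of the study. Only its methods give months in place of weeks. The strain bears on the first gene of the list, because C57BL/6J mice carry an intronic deletion in Gabra2 that is known to lower its mRNA in brain.

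The GABA-A receptor is a chloride channel of 5 subunits that opens when GABA binds at the interface between a beta and an alpha subunit. Alpha subunits set much of the affinity for GABA and the response to benzodiazepines, the gamma subunit completes the benzodiazepine site and helps to hold the receptor at synapses, and the delta subunit takes the place of gamma in receptors outside synapses. Sensory neurons of the DRG keep a high internal chloride concentration, so GABA depolarizes them, and the receptors on their central terminals are the basis of presynaptic inhibition in the spinal cord.

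The members lie on 5 chromosomes, and 4 of them sit in pairs (GRCm38). Gabrg1 (ENSMUSG00000001260, chromosome 5, 70751047 to 70842617, minus strand) and Gabra2 (ENSMUSG00000000560, chromosome 5, 70957597 to 71095849, minus strand) are 115.0 kb apart. Gabrg3 (ENSMUSG00000055026, chromosome 7, 56716465 to 57387188, minus strand) and Gabra5 (ENSMUSG00000055078, chromosome 7, 57407672 to 57510059, minus strand) are 20.5 kb apart, and no protein-coding gene lies inside either gap. Gabra3 (ENSMUSG00000031343) is on chromosome X, 72432681 to 72656848, minus strand. Gabrb2 (ENSMUSG00000007653) is on chromosome 11, 42419757 to 42629028, plus strand, and Gabrd (ENSMUSG00000029054) is on chromosome 4, 155384980 to 155398112, minus strand. Gabra5 was the only member with an exon shared with another annotated gene, the antisense transcript Gm9962, which had 2 to 20 counts per library. A second protein-coding subunit gene starts inside the span of Gabra5 on the opposite strand, without a shared exon. The library kit marks strand, but the strand setting of the counting is not given in the sources used here, so reads of Gabra5 and Gm9962 may not be separated.

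Promoter windows of 250 bases before and 50 bases after the annotated start were found in RefSeq (GRCm38.p6) for 6 of the members, all but Gabrd. Where a gene had several windows, the one nearest to its GENCODE start was used. The 4 below include Gabra2 and Gabrg1, neighbours that were both lower with DMI when averaged over sham and injured mice. Neither fall kept its size once the trends on GC content and transcript length described further on were removed. Gabra3 and Gabrg3 are shown because they varied together across mice. Each window is written 5' to 3' on the strand of the gene, with CG dinucleotides in capitals. The positions are chr5:71095800-71096099 for Gabra2, chr5:70842568-70842867 for Gabrg1, chrX:72656758-72657057 for Gabra3 and chr7:57387166-57387465 for Gabrg3, all on the minus strand.
Gabra2: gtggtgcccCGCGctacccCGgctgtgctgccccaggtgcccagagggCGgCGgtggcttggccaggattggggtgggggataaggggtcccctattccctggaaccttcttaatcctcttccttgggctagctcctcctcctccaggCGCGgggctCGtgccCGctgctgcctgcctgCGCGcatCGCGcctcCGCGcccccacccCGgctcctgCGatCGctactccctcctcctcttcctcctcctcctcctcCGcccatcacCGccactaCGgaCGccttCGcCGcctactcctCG
Gabrg1: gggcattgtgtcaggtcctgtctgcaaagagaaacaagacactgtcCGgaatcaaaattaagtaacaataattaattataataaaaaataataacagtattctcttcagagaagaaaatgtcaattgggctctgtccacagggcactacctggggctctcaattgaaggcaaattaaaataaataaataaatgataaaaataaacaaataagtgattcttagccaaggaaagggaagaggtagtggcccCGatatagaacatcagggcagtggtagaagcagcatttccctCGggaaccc
Gabra3: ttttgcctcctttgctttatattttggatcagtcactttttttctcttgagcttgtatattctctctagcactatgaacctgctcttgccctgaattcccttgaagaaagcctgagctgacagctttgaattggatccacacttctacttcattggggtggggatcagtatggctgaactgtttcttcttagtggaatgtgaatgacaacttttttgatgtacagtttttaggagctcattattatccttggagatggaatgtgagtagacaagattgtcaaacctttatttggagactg
Gabrg3: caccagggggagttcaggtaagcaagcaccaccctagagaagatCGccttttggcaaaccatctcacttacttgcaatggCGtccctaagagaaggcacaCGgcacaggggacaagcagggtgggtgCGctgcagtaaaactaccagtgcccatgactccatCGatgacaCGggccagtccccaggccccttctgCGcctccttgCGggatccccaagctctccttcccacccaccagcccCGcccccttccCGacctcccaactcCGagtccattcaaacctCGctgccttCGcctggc

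The neighbours on chromosome 5 had unlike promoters. The Gabra2 window was 70.0% G and C with 25 CG dinucleotides, a higher GC content than 90.4% of the 32851 RefSeq windows of this length. The Gabrg1 window was 38.3% G and C with 3 CG dinucleotides, above 7.4% of all windows. The pair that varied together was also unlike, since the Gabra3 window was 39.3% G and C and held no CG dinucleotide, and the Gabrg3 window was 61.0% G and C with 13. The Gabra5 and Gabrb2 windows lay between these, at 56.7% and 59.0%, against a median of 52.7% over all windows. A set of 3 motifs was searched in the 6 windows. TATAAA on the strand of the gene, the TATA box, was found 1 time, in Gabrb2, and is present in 8.32% of all windows. The cyclic AMP response element TGACGTCA, which reads the same on both strands, was in none of the 6 and is in 1.79% of all windows. The pattern TGANTCA, likewise a palindrome, takes any base at N and so is wider than the AP-1 site that it includes. It was in none of the 6 and is in 7.81% of all windows.

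Between 41194238 and 73920332 reads per library were counted on genes. Markers of sensory neurons such as Tubb3 and Prph were abundant, with a summed level of the 16 markers between 13900 and 17500 CPM (counts scaled to library size) in every library. The tissue field of the labels reads spinal cord, while the cell type field reads DRG. The 11 markers of spinal cord neurons, oligodendrocytes and astrocytes summed to only 20.4 to 52.1 CPM. None of the 11 was at 0 in every library, and 5 of them passed the filter on low counts. Libraries carry the numbers 17 to 24 for the DMI groups and 33 to 40 for the saline groups in their names, each group in an unbroken run. An effect of preparation or sequencing order therefore cannot be told apart from the groups. L3-6 ganglia hold both cut and spared neurons as well as glia and immune cells. In such bulk tissue, fewer cells of a type and less RNA per cell cannot be told apart.

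All 7 members were detected in each of the 16 libraries, with 24 counts (Gabrd in an SNI-Saline mouse) as the lowest value and 2866 (Gabra2 in a Sham-DMI mouse) as the highest, and all 7 passed the filter. Levels of different genes were compared per kilobase of exon (RPKM). In each group the order began with Gabra3, Gabra2, Gabrg1, Gabra5 and Gabrb2, and ended with Gabrg3 and Gabrd. In Sham-Saline mice the level was 6.58 ± 0.6 RPKM for Gabra3, 5.31 ± 0.644 for Gabra2, 3.53 ± 0.278 for Gabrg1, 2.64 ± 0.249 for Gabra5, 1.98 ± 0.146 for Gabrb2, 0.455 ± 0.149 for Gabrg3 and 0.363 ± 0.0823 for Gabrd (SD, n = 4). Gabra3 and Gabra2 overlapped in Sham-Saline and Sham-DMI mice, Gabrg1 and Gabra5 overlapped in both DMI groups, and Gabrg3 and Gabrd overlapped in all groups. The other neighbours in this order did not overlap in any group. Over the 16 libraries, Gabra3 stood above 55.3% of the 15718 tested protein-coding genes in RPKM, Gabra2 above 49.4% and Gabrg3 above 13.7%. The alpha subunits of this set were thus more abundant per length than its beta subunit, and gamma1 more abundant than gamma3.

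**Figure D1:**
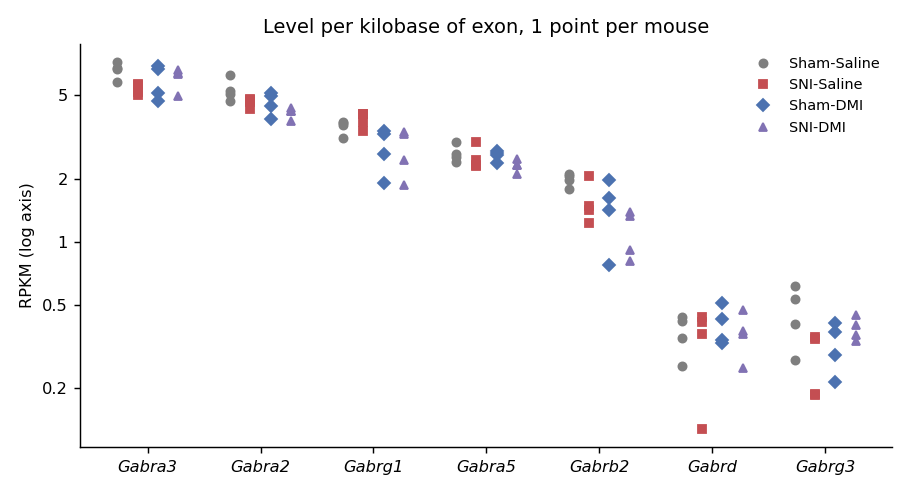
Level of each member in RPKM on a log axis, 1 point per mouse, with the 4 groups set side by side and the genes ordered by their mean. Gabra3 is highest, with group means of 5.37 to 6.58 RPKM, and Gabrg3 and Gabrd lie lowest, with group means of 0.267 to 0.455 and 0.335 to 0.401 RPKM.

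The first comparison asks what nerve injury changed in saline-treated mice (SNI-Saline against Sham-Saline). Gabrg3, which encodes gamma3, a rare gamma subunit, was the only member that passed, at an adjusted p under 0.1 in edgeR's quasi-likelihood test across all 21371 genes. In that comparison 12.0% of all tested genes were called, so 1 of 7 members is near the background. Scaled CPM of Gabrg3 was 3.25, 4.84, 6.34 and 7.31 in the Sham-Saline mice and 4.2, 4.11, 2.23 and 2.22 in the SNI-Saline mice. The injured mice were low as a group, with 2 of them below all other values, but the lowest sham mouse lay among them. The mean was 5.43 ± 1.77 CPM in Sham-Saline and 3.19 ± 1.11 CPM in SNI-Saline (SD, n = 4), and Gabrg3 fell by 0.77 on the log2 scale (SE 0.256, and edgeR's adjusted p = 0.0789), whereas the exact two-sided permutation test of 4 against 4 mice gave p = 0.114. The smallest p that this permutation test can give is 0.0286. The call for Gabrg3 was lost without any 1 of the 4 SNI-Saline libraries, without Sham-Saline replicate 3 or 4 or without Sham-DMI replicate 3, with adjusted p up to 0.222.

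Gabra3, the alpha3 subunit, was 22.6, 26.4, 28.2 and 26.1 CPM in Sham-Saline mice and 22.3, 20.4, 22 and 19.6 CPM in SNI-Saline mice. Every injured mouse was below every sham mouse, with a narrow gap between the highest injured and the lowest sham animal. The difference was -0.30 on the log2 scale (SE 0.114), with an edgeR adjusted p of 0.128 that misses the threshold and an exact permutation p of 0.0286. Groups did not overlap for 1 of the 7 members, and 15.4% of all tested genes showed this. DESeq2 on all libraries (adjusted p = 0.0782) and edgeR on the 8 libraries alone (adjusted p = 0.0337) called Gabra3.

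The other members did not pass with injury under saline. Gabra2, the alpha2 subunit, was 47.5, 36.1, 38.5 and 40.3 CPM in Sham-Saline mice and 36.6, 35.7, 36.1 and 32.8 CPM in SNI-Saline mice. The groups overlapped at their edge, and Sham-Saline replicate 1 stood above the rest. The difference was -0.20 (log2, SE 0.0884, adjusted p = 0.18 by edgeR). Gabrb2, which encodes beta2, was 13.4, 11.3, 13.1 and 12.5 CPM in Sham-Saline mice and 9.42, 9.06, 13.2 and 7.84 CPM in SNI-Saline mice. Of the injured mice 3 were below every sham mouse, and the remaining one lay at the level of the sham group (log2 difference -0.35, SE 0.223, edgeR adjusted p = 0.373). For Gabrg1, Gabra5 and Gabrd the log2 differences were 0.11, -0.07 and -0.13, with 95% intervals of -0.23 to 0.46, -0.28 to 0.14 and -0.75 to 0.5. Over all members 6 of 7 values were negative, with a median of -0.20, against a median of -0.001 and 50.1% negative values over all tested genes.

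**Figure D2:**
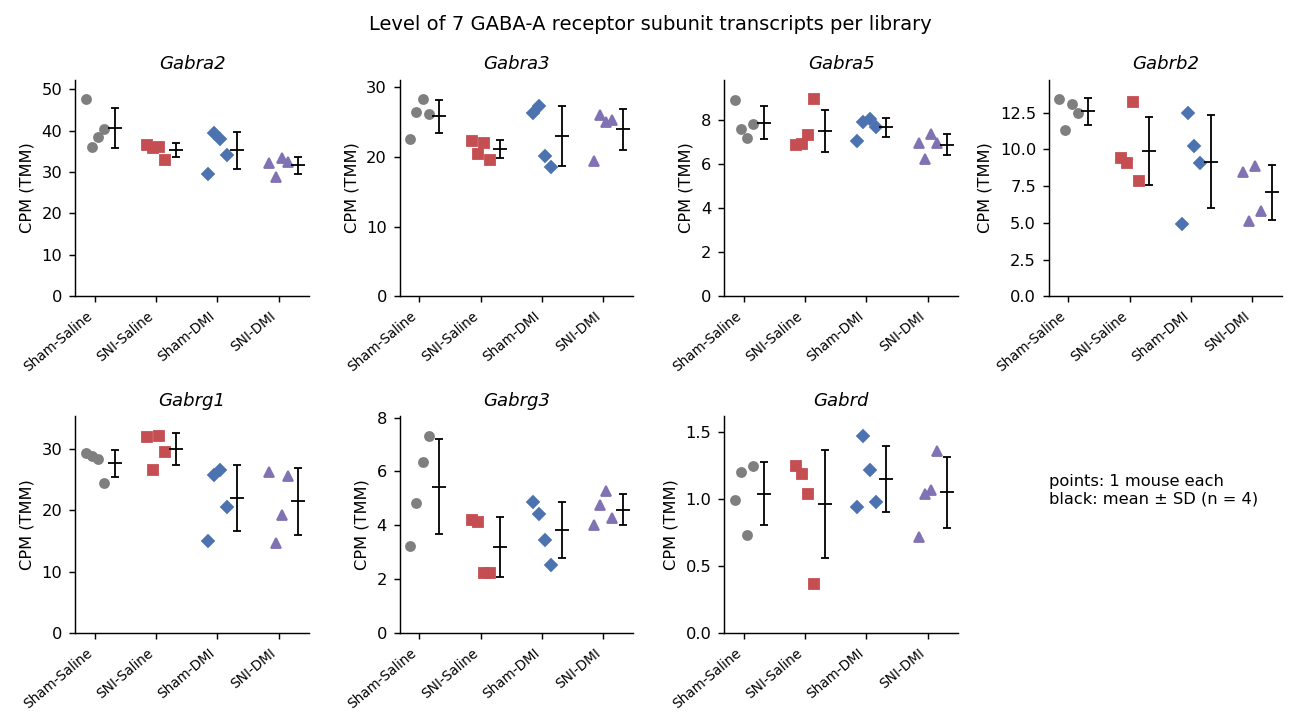
Scaled CPM of each member in the 4 groups, 1 point per mouse, with the mean and SD (n = 4) in black beside the points. Each axis starts at 0. Gabrg3 is lowest in SNI-Saline mice (mean 3.19 CPM), and Gabrg1 is lower in both DMI groups (means 22 and 21.5 CPM) than in both saline groups (27.7 and 30.0 CPM).

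Under DMI, the same injury comparison (SNI-DMI against Sham-DMI) gave no call by edgeR for any member, 0 of 7 at an unadjusted p under 0.05 and 0 by DESeq2. Among all genes 0.402% were called there. The log2 difference of Gabrg3 was 0.26 (95% interval -0.27 to 0.8) and that of Gabra3 was 0.05 (-0.19 to 0.29). Averaged over both treatments, injury lowered Gabra2 by a small amount, which fell by 0.18 on the log2 scale (SE 0.0627, with an edgeR adjusted p = 0.0804), 1 call among 7 members against 16.1% of all genes. It was -0.02 (adjusted p = 0.886) once the trends on GC content and transcript length described further on were removed. This call was lost when any 1 of 10 libraries was left out, each SNI-Saline library but replicate 3 among them, and without replicate 3 of SNI-Saline or replicate 1 of Sham-DMI the beta subunit Gabrb2 was called as well.

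The second question is what DMI changed. In sham mice (Sham-DMI against Sham-Saline) edgeR called no member, although 23.4% of all genes were called. Only Gabra2 had an unadjusted p under 0.05, and DESeq2 called 0 of 7. In injured mice (SNI-DMI against SNI-Saline), edgeR again called 0 of 7 members at an adjusted p under 0.1, against 2.93% of all genes, and DESeq2 called 1, Gabrg1. The number of genes called there, 626, was itself unstable. Leaving out replicate 1, 2 or 3 of SNI-DMI gave 0 calls, as did leaving out replicate 1 or 3 of SNI-Saline. Without SNI-Saline replicate 4 there were 38 calls, and without Sham-DMI replicate 1 there were 1842. Nominal cut-offs, an unadjusted p under 0.05 together with a log2 change of 0.32 or more in either direction, were applied here to edgeR. By these, 2 of 7 members passed, Gabrg1 and Gabrb2, against 5.73% of all genes. Gabrg3 was higher by 0.53 on the log2 scale and missed them, with an unadjusted edgeR p of 0.0554. The study used the same cut-offs on DESeq2 results and names Gabrg3 among the genes that changed in this comparison.

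Gabrg1, the gamma1 subunit, was 31.9, 26.6, 32.1 and 29.5 CPM in SNI-Saline mice and 26.2, 14.7, 19.2 and 25.6 CPM in SNI-DMI mice. In Sham-Saline mice it was 29.3, 28.9, 28.3 and 24.5 CPM, and in Sham-DMI mice 15.0, 25.8, 26.5 and 20.5 CPM. No SNI-DMI mouse reached the lowest SNI-Saline mouse, while the sham groups overlapped, and in each DMI group the mice were more spread than in the saline groups. The log2 difference was -0.49 in injured mice (SE 0.166, unadjusted p = 0.00907, edgeR adjusted p = 0.137, exact permutation p = 0.0286) and -0.34 in sham mice (SE 0.166, adjusted p = 0.177). Groups that did not overlap were found for 13.3% of all tested genes in the injured comparison.

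Gabrb2 was 4.92, 12.5, 10.2 and 9.05 CPM in Sham-DMI mice and 8.47, 5.16, 8.84 and 5.82 CPM in SNI-DMI mice. It spread widely under DMI, and its lowest and highest Sham-DMI animals reached beyond the range of the SNI-DMI mice. The group mean went from 12.6 ± 0.926 CPM in Sham-Saline to 7.07 ± 1.85 CPM in SNI-DMI (SD, n = 4). Its log2 difference with DMI was -0.48 in injured mice (SE 0.226, edgeR adjusted p = 0.261, exact permutation p = 0.143) and -0.45 in sham mice (SE 0.224, adjusted p = 0.178). Gabra2 was 29.6, 39.3, 37.9 and 34 CPM in Sham-DMI mice and 32.1, 28.7, 33.4 and 32.3 CPM in SNI-DMI mice. All but 1 of the SNI-DMI mice were below the lowest SNI-Saline mouse, and the sham groups overlapped. The log2 difference of Gabra2 was -0.16 in injured and -0.21 in sham mice by edgeR.

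Averaged over sham and injured mice, 3 members fell with DMI by edgeR. Over all 21371 genes 30.6% were called in either direction, and 3385 were called lower. On the log2 scale Gabrg1 fell by 0.41 (SE 0.117, adjusted p = 0.0175), Gabrb2 fell by 0.47 (SE 0.159, adjusted p = 0.041) and Gabra2 fell by 0.18 (SE 0.0627, adjusted p = 0.0425). These correspond to folds of 0.752, 0.723 and 0.881. Gabrg1 was called without any 1 of the 16 libraries, Gabrb2 was lost without SNI-Saline replicate 3, and Gabra2 was lost without replicate 1 of either saline group. The other 4 members had average differences between -0.08 and 0.14, and their 95% intervals all included 0. The median of the 7 members was -0.08, against -0.013 over all tested genes. Both DMI comparisons used different control mice, whereas the injury comparison under saline shares its Sham-Saline mice with DMI under sham and its SNI-Saline mice with DMI under SNI.

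No comparison called Gabra5 or Gabrd. Gabra5, the alpha5 subunit known from receptors outside synapses, ranged from 6.23 to 8.92 CPM over all 16 mice, with group means between 6.87 CPM (SNI-DMI) and 7.86 CPM (Sham-Saline). Its largest log2 difference among the 4 group comparisons was -0.16, for injury under DMI (95% interval -0.37 to 0.05). Gabrd, the delta subunit, ranged from 0.367 to 1.47 CPM, and its group means lay between 0.963 and 1.15 CPM. Its intervals were wide, for example -0.5 to 0.76 for DMI under SNI, so changes within these bounds were not detectable at this depth and spread.

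Whether DMI acted differently in injured and in sham mice was tested as the difference between both DMI effects. No gene of the 21371 was called by edgeR (0.0%), 1692 had an unadjusted p under 0.05, and DESeq2 called 16 genes, none of them a member. Under the nominal cut-offs 2 of 7 members passed, against 3.45% of all genes. Gabrg3 was 4.87, 4.41, 3.45 and 2.54 CPM in Sham-DMI mice and 4.01, 4.76, 5.29 and 4.27 CPM in SNI-DMI mice. Its mean was below that of the matching saline group in sham mice and above it in injured mice, with overlap in both cases. The log2 difference with DMI was -0.51 in sham (SE 0.254, adjusted p = 0.184) and 0.53 in injured mice (SE 0.257, adjusted p = 0.281, exact permutation p = 0.114). These differed by 1.04 (SE 0.361, adjusted p = 0.619 by edgeR). Gabra3 was 26.2, 27.2, 20.1 and 18.5 CPM in Sham-DMI mice and 19.4, 26, 24.9 and 25.2 CPM in SNI-DMI mice. Here 3 of the SNI-DMI mice lay above all SNI-Saline mice and 1 lay below all of them, and the Sham-DMI mice fell into a higher and a lower pair. Its DMI effects differed by 0.35 (SE 0.162, adjusted p = 0.628 by edgeR).

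Several of these differences moved with the base composition and length of the transcripts. The GC content of the longest annotated transcript was 35.3% for Gabrg1, 38.4% for Gabra2, 42.9% for Gabrg3, 43.1% for Gabra3, 44.0% for Gabrb2, 47.1% for Gabra5 and 54.7% for Gabrd. The trend of log2 CPM on GC content and exon length, fitted over all genes in each library, placed genes like Gabrg1 at 0.319 and -0.093 in sham mice given saline and DMI, and at 0.0247 and -0.246 in the matching injured mice, relative to the mean of all libraries. For Gabra2 these values were 0.22, -0.0628, 0.0204 and -0.175, and for Gabrd they ran the other way, from -0.0748 to 0.0674. With the trends removed, edgeR called none of the 7 members in any of the 7 contrasts. The average DMI effect was then -0.09 for Gabrg1 (SE 0.0952, adjusted p = 0.605), 0.05 for Gabra2 (SE 0.0461, adjusted p = 0.496) and -0.38 for Gabrb2 (SE 0.149, adjusted p = 0.104). For injury under saline Gabrg1 stood at 0.41 (SE 0.134, adjusted p = 0.107) and Gabrg3 at -0.61 (SE 0.269, adjusted p = 0.224). The 95% interval for Gabrg3 under DMI in injured mice then ran from 0.06 to 1.2, with an adjusted p of 0.318. The Gabrb2 and Gabrg3 differences therefore kept most of their size, and those of Gabrg1 with DMI and of Gabra2 with DMI and with injury did not. Whether the trend is technical or biological was not tested.

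**Figure D3:**
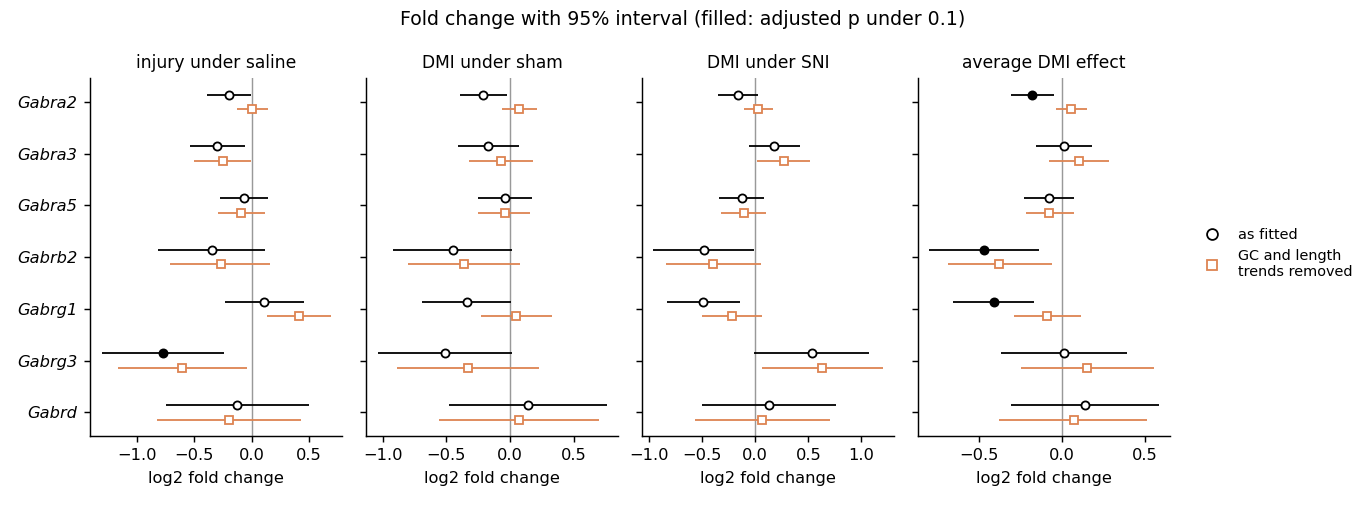
Log2 fold change of each member with its 95% interval in 4 contrasts, as fitted (black circles) and after removal of the GC and length trends of each library (orange squares), with filled symbols for an adjusted p under 0.1. As fitted, Gabrg3 is called with injury under saline and Gabra2, Gabrb2 and Gabrg1 in the average DMI effect, and no square is filled.

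Markers of other cells were read in the same contrasts, with the GC and length trends left in. Over all genes, 30.6% were called in the average DMI effect and 12.0% with injury under saline. For DMI in sham mice the share was 23.4%, and for DMI in injured mice it was 2.93%. With the average DMI effect, 7 of the 9 tested neutrophil markers were called lower (median -1.47 on the log2 scale), and their summed level was 10.7 to 40.4 CPM in sham and 16 to 51.6 CPM in injured mice given saline, and 3.9 to 18.7 CPM and 4.48 to 14.1 CPM in those given DMI. Of the 5 tested spinal cord markers 3 were called lower with DMI, and the 11 summed to 27.6 to 37.8, 24.3 to 52.1, 21.5 to 31.4 and 20.4 to 29.3 CPM in the groups in the same order. Satellite glia markers had 3 called higher and 1 lower of 9, sensory neuron markers 4 higher and 3 lower of 16, macrophage markers 2 lower of 8, and red cell, endothelial and fibroblast markers 1 lower each, of 6, 7 and 5. The macrophage, red cell, endothelial and fibroblast counts, all lower, lie below the 30.6% of all genes called in either direction. Of all 21371 genes, 3385 were called lower. The 8 Schwann cell markers had a median of -0.05. Of the 9 tested markers of injured neurons 6 were called higher in the average DMI effect, with a median of 0.69 in sham mice, where 5 were called, and of 0.07 in injured mice, where none passed and 3 were negative. With injury under saline, 8 of 9 tested markers of injured neurons were called higher (median 2.32), summing to 76.1 to 85.4 CPM in sham and 274 to 305 CPM in injured mice given saline and to 96.6 to 139 CPM and 243 to 428 CPM in those given DMI, and 4 of 8 macrophage markers were called higher. The part of these cells in the values of the members was not tested.

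Pairs of members were then compared across the 16 mice on the log2 CPM scale, 21 pairs in all, with permutation tests. The permutations ignored the groups, so shifts between groups that both genes share enter r and p. The r within saline or within DMI still mixes sham and injured mice. Gabra2 and Gabrb2, an alpha and a beta subunit on different chromosomes, had a Pearson r of 0.868 and a Spearman rho of 0.918 (both adjusted permutation p = 0.00021, from the smallest p that the permutations can give). Without the 2 mice farthest from the median of Gabra2, r was 0.885, and it was 0.704 among the 8 saline and 0.922 among the 8 DMI mice. Gabra3 and Gabrg3 had an r of 0.744 and a rho of 0.803 (adjusted permutation p = 0.00934 and 0.00315), an r of 0.754 without 2 mice, 0.793 within saline and 0.818 within DMI. Libraries with a high level of the first gene of each pair therefore had a high level of the second under both treatments. The neighbours on chromosome 5 did not hold together in this way, since Gabra2 and Gabrg1 had an r of 0.636 over all mice (adjusted permutation p = 0.0437, rho 0.465, adjusted p = 0.251) but -0.198 within saline and 0.751 within DMI. Gabrb2 and Gabrg1 had an r of 0.708 and a rho of 0.582 over all mice. The r rests on 2 mice, as it was 0.292 without them, and it was -0.068 within saline and 0.691 within DMI. The neighbours on chromosome 7, Gabra5 and Gabrg3, had an r of -0.392 (adjusted permutation p = 0.336). Depth-scaled libraries share the GC and length trends described above, and their part in these correlations was not tested.

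**Figure D4:**
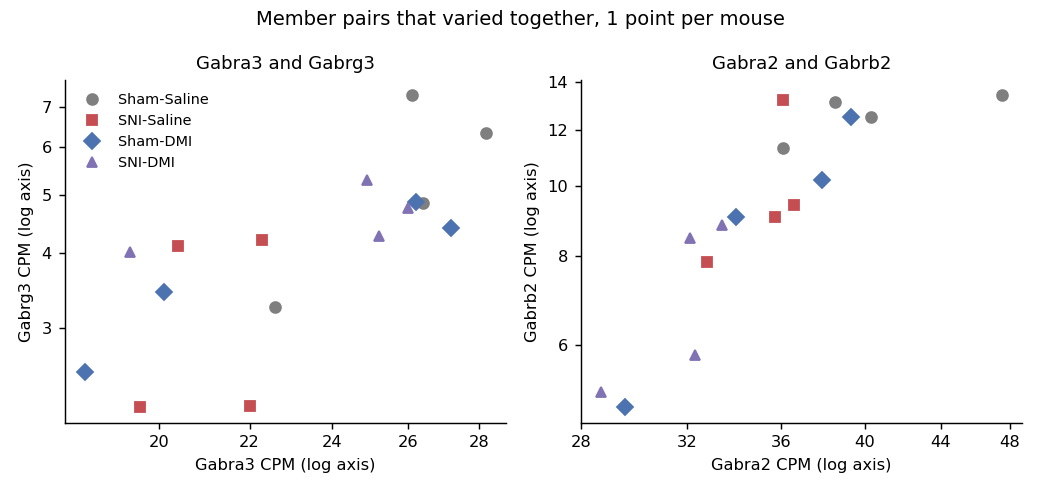
CPM of Gabrg3 against Gabra3 and of Gabrb2 against Gabra2 on log axes, 1 point per mouse with a symbol for each group. Both pairs rise together across the groups, with r = 0.744 and r = 0.868 over 16 mice.

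Among 13710 other protein-coding genes with a mean of at least 1 CPM, the genes most like each member by Pearson r over the 16 libraries are given as a description. Shifts between groups and the GC and length trends also enter these r values, and their part was not tested. For Gabrb2 they were Smg1 (0.971), Ptar1 (0.971) and Edem3 (0.967), and for Gabra2 Cltc (0.955), Itch (0.95) and Clasp2 (0.949). For Gabrg1 they were Mfap3l (0.955), Itgb8 (0.942) and Folh1 (0.928). For Gabrg3 they were Mgat4a (0.939), Cacna1e (0.923) and Greb1l (0.921), and for Gabra3 Rasgef1b (0.879), Dqx1 (0.876) and Dchs1 (0.827). Gabra5 was most like Lix1 (0.888), Elovl4 (0.887) and Entpd5 (0.879), and Gabrd, with the fewest counts, had the weakest match, Srsf2 (0.76), before Cilp (0.727) and Plcd4 (0.713).

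The rest of the GABA pathway was read in the same fits, with the GC and length trends left in. Removing both trends changed the calls over all genes in the average DMI effect from 6542 to 4211. The part of these trends in the values of the genes named here and in the paragraphs that follow was not tested. Of the 12 other GABA-A subunit genes 10 were tested and 1 had no count in any library, and 3 fell with injury under saline and 4 fell in the average DMI effect, with medians of -0.22 in both cases and no call upward. Over all genes 12.0% were called in the first of these contrasts and 30.6% in the second, in either direction. Of all 21371 genes, 1321 were called lower in the first and 3385 in the second. The count with DMI is near the share called in either direction. The metabotropic GABA-B receptor is an obligate pair of subunits. Both fell with injury under saline by edgeR, Gabbr2 by 0.23 (adjusted p = 0.0335) and Gabbr1 by 0.16 (adjusted p = 0.0935). For injury under DMI, where 0.402% of all genes were called, the values were -0.16 and -0.07 (edgeR adjusted p = 0.301 and 0.659). Both were called in the average injury effect (-0.19 and -0.11, edgeR adjusted p = 0.0125 and 0.0783), where 16.1% of all genes were called. No contrast of DMI against saline called either gene, and their DMI effects did not differ detectably between injured and sham mice (edgeR adjusted p = 0.841 and 0.783). Per length, Gabbr1 was at 69.3 RPKM, far above every member. Of 10 tested genes for GABA synthesis, transport and breakdown, the median was -0.06 with injury under saline. In the average DMI effect, where 30.6% of all genes were called in either direction, 3 of the 10 were called lower. These were Aldh5a1, which clears succinic semialdehyde (-0.16, adjusted p = 0.0217), Gad1, which makes GABA (-0.54, adjusted p = 0.0713), and the GABA transporter gene Slc6a11 (-0.18, adjusted p = 0.0872). Gad1 was scarce, with a mean of 0.718 CPM. With DMI it was not called by edgeR in sham mice (adjusted p = 0.233) or in injured mice (adjusted p = 0.332).

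Genes for receptor scaffolding and trafficking split by direction. Of 19 tested, 4 rose and 4 fell in the average DMI effect, where 30.6% of all genes were called. Among them were Gabarapl1, a relative of the GABA-A receptor-associated protein (0.14, adjusted p = 0.0116), and Rdx, which anchors alpha5 receptors (-0.13, adjusted p = 0.0154). With injury under saline 1 of 19 was called, Trak1 (-0.19, adjusted p = 0.0788). In the average DMI effect 30.6% of all 21371 genes were called in either direction, and 3385 were called lower. For chloride transport 4 of 13 tested genes were called there, near the share in either direction, and all 4 were lower. They included Slc12a2, the NKCC1 cotransporter that loads sensory neurons with chloride (-0.20, adjusted p = 0.0033), and the kinase genes Wnk1 (-0.17, adjusted p = 0.00949) and Wnk3 (-0.26, adjusted p = 0.0481) that regulate it. Wnk1 was also the 1 gene of this list called with injury under saline (-0.20, adjusted p = 0.0626).

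Of 6 tested genes for endogenous modulators of the receptor, 3 rose with injury under saline, where 12.0% of all genes were called in either direction, and 2 of the other 3 had negative values that did not pass. The called genes were Star, which carries cholesterol into mitochondria for steroid synthesis (0.88, adjusted p = 0.000276), Dbi, the diazepam-binding inhibitor (0.33, adjusted p = 0.017), and Tspo, the mitochondrial translocator protein (0.31, adjusted p = 0.0813). In the average DMI effect Dbi (0.21, adjusted p = 0.00504) and Tspo (0.21, adjusted p = 0.0474) rose, and Akr1c14, a 3-alpha-hydroxysteroid dehydrogenase of neurosteroid synthesis, fell by 0.72 (adjusted p = 0.00188). In that contrast 30.6% of all tested genes were called. Macrophages and glia are known to express Tspo and Dbi, and the cells behind these values were not resolved.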

How the data were processed

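The authors isolated RNA from L3-6 DRGs of 16 mice, made stranded mRNA libraries, sequenced paired reads and aligned them to mm10. The notes on processing name HISAT2, HTSeq and DESeq2, and the annotation release and strand setting are not given in the sources used here. The deposited values are whole-number counts per Ensembl gene, without normalization. The last 5 lines of each file (18.83% to 20.44% of reads) name no gene and were left out. Gene names, positions, exon lengths and GC content come from GENCODE M21 (52403 of 52636 genes matched). Exon length covers all exons of a gene, and GC content is that of its longest transcript. Promoter windows come from RefSeq (GRCm38.p6).

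The tests ran in edgeR 4.0.16 under R 4.3.3. Genes were kept by filterByExpr (21371 genes), scaled by TMM and fitted by the quasi-likelihood method with 1 coefficient per group over all 16 libraries. A gene was called at a Benjamini-Hochberg adjusted p under 0.1 over all genes tested. CPM values are scaled by TMM, and RPKM divides them by exon length. The log2 CPM of single genes (prior count 2) was also compared by an exact permutation test, two-sided, and correlations used 100000 permutations. Intervals are 95% intervals of the edgeR fit. Alternatives were other scaling methods, other filters, DESeq2 1.42.0, only the libraries of a contrast, a replicate block, the nominal cut-offs, each library left out in turn, and removal of the GC and length trends (mgcv 1.9.3, basis size 8), also for GC or length alone, which was added after seeing the data. Tables and figures used python 3.11.15, pandas 2.3.3 and matplotlib 3.10.9.

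The members and gene lists were chosen with earlier results of these data known. All members are named. From the other lists a gene is named at an adjusted p under 0.1 in a contrast discussed, up to 4 a list by smallest p, or as the most abundant of its list, and for each member the 3 most correlated genes are named. Some other genes of these lists are not reported here by name. Replicates are separate mice.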

Additional observations from a re-analysis of the deposited data

Results flagged for a closer look

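Of 28 groups of 4 mice tested for a sample far from the others, 1 had one, where chance flags about 1 in 20. Gabra3 in SNI-DMI replicate 1 was 19.4 CPM, below the 24.9 to 26 CPM of the other 3 mice, with a gap of 0.834 of the range of the group.

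The DMI effects in injured and in sham mice differed by an unadjusted p under 0.05 for 2 members. The difference was 1.04 on the log2 scale for Gabrg3 (edgeR adjusted p = 0.619) and 0.35 for Gabra3 (edgeR adjusted p = 0.628). Both fail the correction over all genes. Both effects shared no mice, and over the 16 fits without 1 library the difference ran from 0.854 to 1.21 for Gabrg3 and from 0.24 to 0.432 for Gabra3.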

How the results depend on the processing

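The counts of members called (1 for injury under saline, 0 for DMI under sham, 0 for DMI under SNI, 3 for the average DMI effect, 1 for the average injury effect and 0 for the difference of DMI effects) depended on the setting. With the GC and length trends removed they were 0 for injury under saline, 0 for the average DMI effect and 0 for the average injury effect. With the GC trend alone removed these were 0, 1 and 0, and with the length trend alone removed injury under saline and the average injury effect had 0 each. DESeq2 on all libraries gave 2 for injury under saline and 1 for DMI under SNI, as did edgeR on the libraries of the contrast, and no filter on low counts gave 1 for DMI under SNI. The nominal cut-offs gave 2 for DMI under SNI and 2 for the difference. Without 1 library the count ran from 0 to 2 for injury under saline, 0 to 2 for DMI under sham, 0 to 1 for DMI under SNI and 0 to 2 for the average injury effect. Over all genes, removal of both trends changed the calls from 2571 to 1299 for injury under saline, from 5010 to 3207 for DMI under sham, from 626 to 73 for DMI under SNI and from 6542 to 4211 for the average DMI effect, and DESeq2 called 1859 for DMI under SNI. The cause was not tested, except that the trend fits change only the offset.

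Same-numbered mice of different groups had deviations correlated at -0.081 to 0.184 (mean 0.025, 5 of 24 pairs over 0.1). For mice with other numbers the range was -0.248 to 0.169 (mean -0.008, 7 of 72 pairs over 0.1). Because these ranges overlap widely, the check cannot decide whether the numbers pair the samples. The replicate block gave 0 calls for injury under saline and 0 for the average injury effect, and turned the Gabrd difference of DMI effects to 0.018, a value near 0.

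Signs that turned with the GC and length trends removed were those of Gabra2 for injury under saline (0.005), DMI under sham (0.073), DMI under SNI (0.032), the average DMI effect (0.053) and the difference (-0.041), and of Gabrg1 for injury under DMI (0.134) and DMI under sham (0.05). With GC alone removed Gabra2 turned for DMI under sham (0.026), DMI under SNI (0.016), the average DMI effect (0.021) and the difference (-0.009), and Gabrg1 for injury under DMI (0.116), which was 0.005 with length alone removed. None of these turned values passed the threshold.

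Without 1 library, some differences near 0 changed sign, and none of these was called. For Gabra2 the difference of DMI effects ran from -0.046 to 0.098. For Gabra3 the average DMI effect ran from -0.021 to 0.067 and injury under DMI from -0.055 to 0.149. For Gabra5, DMI under sham ran from -0.059 to 0.044, the difference from -0.158 to 0.005 and injury under saline from -0.162 to 0.007. For Gabrb2 the difference ran from -0.254 to 0.158. For Gabrg1 the average injury effect ran from -0.038 to 0.114 and injury under DMI from -0.193 to 0.111. For Gabrg3 the average DMI effect ran from -0.066 to 0.103. For Gabrd, DMI under SNI ran from -0.148 to 0.291, the average DMI effect from -0.004 to 0.226, the average injury effect from -0.213 to 0.007, the difference from -0.288 to 0.131, injury under DMI from -0.302 to 0.017 and injury under saline from -0.261 to 0.152.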
